A study of Mus musculus with 48 samples.

Results

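The Hmgn1 gene on mouse chromosome 16 and the Hmgn2 gene on chromosome 4 encode a pair of small proteins that bind nucleosomes, and DKO cells lack functional copies of both genes. The 10 genes described here lie beside these loci. They were chosen by their position and with the differences between DKO and WT cells in these data already known, from the 55450 genes of the deposited tables. Cbr1, Cbr3, Ets2, Psmg1, Brwd1 and Wrb are on chromosome 16, and Rps6ka1, Dhdds, Arid1a and Zdhhc18 are on chromosome 4. All 10 passed the filter on low counts in each of the 8 comparisons of DKO with WT cells. Because the choice had these differences in view, the differences are given as a description with no test, and only the time course of WT cells is tested.

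Primary preadipocytes came from the inguinal white fat (iWAT) of C57BL/6 WT mice and of Hmgn1-/-Hmgn2-/- (DKO) mice, 8 to 12 weeks old, and were sampled at days 0, 3, 6 and 9 of induced browning. Mouse embryonic fibroblasts (MEFs) of both genotypes, prepared from mid-gestation embryos, were sampled at days 0, 4, 8 and 12. The WT and DKO cells received the same media, first insulin, dexamethasone, IBMX, T3 and rosiglitazone and then insulin and T3 alone. The first medium was given for 4 days to preadipocytes and for 8 days to MEFs. Days 6 and 9 of preadipocytes and day 12 of MEFs thus fell after the change of medium. An effect of the day cannot be told apart from that of the medium. Each cell type, genotype and day had 3 RNA-seq libraries (48 in all). The study calls its replicates biological. The labels do not say whether the libraries of a group came from separate animals or embryos, and p-values measure the spread between these libraries, with the libraries of different days taken as independent.

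A targeted allele is moved from strain to strain together with the DNA that flanks it. The catalogue name of the DKO line marks it as a congenic on the C57BL/6 background, which means that the alleles were bred in from another background, and genes close to such an allele can differ between mutant and control mice without any action of the missing protein. Genes on the same stretch can also be altered by the targeted change itself. Counts per gene cannot tell a difference that is local in this sense from one that comes with the state of the cells. Neither the extent of the flanking DNA nor the exact change at each locus is given in the sources used here.

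The members have varied functions, shared only in part. CBR1 and CBR3 are carbonyl reductases, NADPH-dependent enzymes that reduce ketones and aldehydes of drugs and of cell metabolites. ETS2 is a transcription factor of the ETS family, BRWD1 a bromodomain protein that binds chromatin, and ARID1A the DNA-binding subunit of the BAF chromatin remodelling complex. PSMG1 is a chaperone of proteasome assembly, and the product of Wrb (Get1 in RefSeq) is a receptor for the insertion of tail-anchored proteins into the endoplasmic reticulum. RPS6KA1 (RSK1) is a kinase below ERK in growth factor signalling, DHDDS makes the polyprenyl chain of dolichol for protein glycosylation, and ZDHHC18 is a palmitoyltransferase.

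Positions are on mm10 with GENCODE M21 gene models, and distances are the gap between the nearest ends of the gene bodies. Dhdds (chromosome 4, 133969028 to 134000918, minus strand) ends 0.378 kb upstream of Hmgn2 (133964738 to 133968650, minus strand). Rps6ka1 (133847290 to 133887797) lies 76.9 kb, Arid1a (133679008 to 133756769) 208 kb and Zdhhc18 (133605299 to 133650154) 315 kb from Hmgn2. On chromosome 16, Wrb (96145407 to 96157852, plus strand) is 17.7 kb and Brwd1 (95992092 to 96082526, minus strand) 38.1 kb from Hmgn1 (96120618 to 96127729, minus strand), on opposite sides of it. Psmg1 (95979933 to 95990960) is 130 kb and Ets2 (95702075 to 95721051) 400 kb away. Cbr3 (93683215 to 93690990, plus strand) and Cbr1 (93605853 to 93610505, plus strand) are the most distant, at 2.43 Mb and 2.51 Mb from Hmgn1. The other 8 members are within 1 Mb of a locus.

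Cbr1 and Cbr3 are neighbours on the same strand, and the largest differences described below are theirs, so the 250 bases before their RefSeq starts (GRCm38.p6) are shown. Capitals mark the GC box (GGGCGG, searched on both strands), the element bound by SP1 family factors. The Cbr1 window is chr16:93607587-93607836 and the Cbr3 window is chr16:93682969-93683218, both on the plus strand. The Cbr1 window lies within the M21 gene body but overlaps none of its exons, and 4 bases of the Cbr3 window are exonic in M21.
Cbr1: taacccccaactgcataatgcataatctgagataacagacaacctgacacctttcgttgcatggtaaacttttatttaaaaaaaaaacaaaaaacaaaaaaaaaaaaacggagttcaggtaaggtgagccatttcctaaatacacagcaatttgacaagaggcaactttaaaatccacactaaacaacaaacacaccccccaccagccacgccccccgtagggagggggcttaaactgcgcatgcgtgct
Cbr3: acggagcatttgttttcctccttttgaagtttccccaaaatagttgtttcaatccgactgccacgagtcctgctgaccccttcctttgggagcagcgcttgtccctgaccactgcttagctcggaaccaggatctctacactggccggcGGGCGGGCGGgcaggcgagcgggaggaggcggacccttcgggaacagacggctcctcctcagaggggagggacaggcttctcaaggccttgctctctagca
The Cbr1 window had a GC content of 41.6% and 6 CG dinucleotides, and the Cbr3 window 59.6% and 14. The Cbr3 window held 2 overlapping GC boxes, which begin 101 and 97 bases before the start, and 33.0% of 32536 RefSeq promoter windows of this length hold 1 or more. The Cbr1 window held no GC box, and no copy of the CCAAT box, the TATA box (TATAAA), the AP-1 motif (TGANTCA), the C/EBP motif (TTGCNNAA), the core of the antioxidant response element (TGACNNNGC) or the DR1 motif of PPAR receptors. None of these 6 was found in the Cbr3 window either. Of all windows, 33.8% hold CCAAT, 12.3% TATAAA, 6.73% the AP-1, 9.57% the C/EBP, 10.2% the antioxidant and 0.0338% the DR1 motif. Such a match is a stretch of letters and not a measured binding site.

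The library totals ranged from 18962483 to 36006696 counts. Values are CPM, the counts of a gene relative to the total of its library, scaled by TMM within a cell type. The targeted genes were checked first. Hmgn2 had at most 10 counts in any DKO library, where WT groups had mean levels between 40.2 and 191.6 CPM. Hmgn1 counts remained in DKO cells, with a log2 DKO/WT from -1.14 ± 0.13 (SE) in MEFs at day 4 to -0.05 ± 0.07 in preadipocytes at day 9, and counts per gene cannot show which exons they came from. Adipocyte markers (7 genes) summed to between 157.8 and 420.8 CPM in WT preadipocytes at day 0 and between 25260 and 26360 CPM at day 9, and in WT MEFs to between 929.7 and 1120 CPM at day 0 and between 16420 and 16610 CPM at day 12. Replicate 2 of WT MEFs at day 8 stood apart, with 3788 CPM of adipocyte markers beside 9290 and 9103 CPM. Other groups at intermediate days also spread widely. WT MEFs at day 4 held 5886, 2017 and 1900 CPM, and WT preadipocytes at day 3 held 674.5, 2642 and 1907 CPM. DKO MEFs ran from 2768 to 7368 CPM at day 4 and from 4376 to 15840 CPM at day 8. Replicate 2 of DKO MEFs at day 0 had 185.0 CPM of Ets2 beside 64.1 and 94.6 CPM. Values without replicate 2 of WT MEFs at day 8 or replicate 2 of DKO MEFs at day 0 are given where they matter.

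Levels per length (CPM per kb of exon) in WT preadipocytes at day 0 ran from 9.23 ± 0.11 (SD, n = 3) for Dhdds through Psmg1, Cbr1, Cbr3, Ets2, Arid1a and Zdhhc18 to 4.37 ± 0.12 for Brwd1, 3.73 ± 0.10 for Wrb and 1.48 ± 0.0023 for Rps6ka1. Neighbours in this order overlapped in their libraries down to Zdhhc18 (6.06 ± 0.85), so the first 7 do not differ from their neighbours beyond their spread, whereas the steps from Zdhhc18 to Brwd1, Wrb and Rps6ka1 did not overlap. In WT MEFs at day 0 Ets2 (12.6 ± 1.1 CPM per kb) and Dhdds (12.1 ± 0.24) were highest and overlapped, Rps6ka1 stood at 10.1 ± 0.54, and Zdhhc18 (5.79 ± 0.13) and Wrb (5.66 ± 0.075) were lowest and overlapped. The cell types were fitted apart and their levels were not tested against each other.

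**Figure D1:**
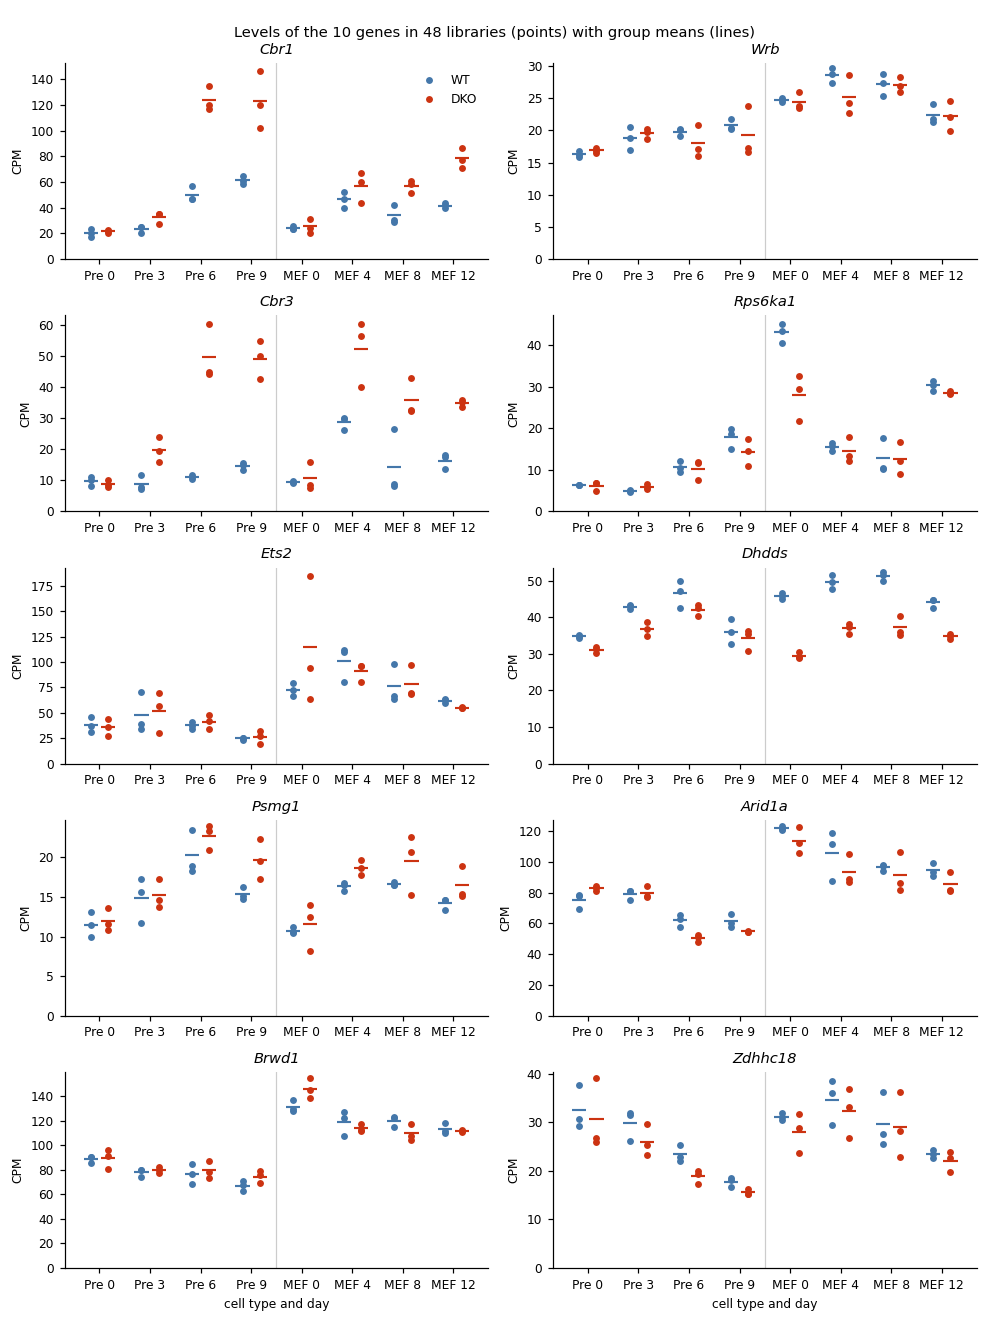
CPM of the 10 genes by cell type and day (x axis), with 1 point per library and lines at the means of 3 libraries, WT in blue and DKO in red. Cbr1 and Cbr3 separate the genotypes at the later days and not at day 0, and Dhdds is lower in DKO MEFs at all 4 days.

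The time course of WT cells was not used to choose the genes. Over its days Cbr1, Cbr3 and Rps6ka1 had the widest range of mean levels, each above 3-fold in at least 1 cell type. Any difference between the 4 days was tested with edgeR's quasi-likelihood test over 12 WT libraries, with Benjamini-Hochberg adjustment over all genes, and a gene was called at an adjusted p under 0.05 and a change of at least 1.5-fold from day 0. Of the 10 genes, 6 were called in preadipocytes, where 64.3% of the 16188 tested genes were called, and 4 in MEFs, where 46.2% of 16359 were. The shares of the members are thus close to those of all genes.

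Cbr1 rose in WT preadipocytes from 23.1, 17.6 and 20.1 CPM at day 0 to 60.9, 58.2 and 64.8 CPM at day 9, 3.03-fold (adjusted p = 1.12e-07, edgeR). Most of this rise fell between day 3 (mean 23.5 CPM) and day 6 (50.1 CPM). Cbr3 had means of 9.70, 8.90, 11.1 and 14.6 CPM at the same days (adjusted p = 0.0077, edgeR), and its adjusted p was 0.0944 without WT replicate 2 and 0.102 without WT replicate 3. The call was also lost with scaling by library size (adjusted p = 0.036, edgeR) and with limma-voom (adjusted p = 0.0142), where no day reached 1.5-fold from day 0. The ratio of Cbr1 to Cbr3 in WT preadipocytes therefore moved from a median of 2.31 at day 0 to 4.54 at day 6.

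In WT MEFs Cbr1 was highest at day 4, at a mean of 46.5 CPM beside 24.1 CPM at day 0 (adjusted p = 0.00063, edgeR). Cbr3 also peaked there, with 30.0, 26.2 and 29.6 CPM beside 9.09, 9.497 and 9.80 CPM at day 0 (adjusted p = 0.0176, edgeR), but the adjusted p was 0.147 without WT replicate 1 and 0.117 without WT replicate 3. With no filter it was 0.0595 (edgeR). At day 8 its WT libraries held 8.70, 26.5 and 8.02 CPM, the high one being replicate 2.

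Rps6ka1 rose in WT preadipocytes from 6.32, 6.30 and 6.30 CPM at day 0 to 15.1, 19.9 and 18.8 CPM at day 9 (adjusted p = 2.23e-07, edgeR). In WT MEFs it went the other way, from 40.7, 43.5 and 45.2 CPM at day 0 to a mean of 15.6 CPM at day 4 and 12.8 CPM at day 8, and stood at 30.4 CPM at day 12 (adjusted p = 1.21e-05, edgeR). Macrophage or leukocyte markers (5 genes, none at 0 counts in any group) were also highest at day 0 and next highest at day 12 of these MEFs. They summed to 1353 to 1552 CPM at day 0, 504.2 to 517.3 CPM at day 4, 483.4 to 684 CPM at day 8 and 925.6 to 954.8 CPM at day 12. In WT preadipocytes they summed to 20.7 to 56.2 CPM at day 0 and 573.1 to 1033 CPM at day 9. Their part in the level of Rps6ka1 was not tested, and in bulk libraries fewer cells of a type cannot be told apart from less RNA per cell.

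Psmg1 rose in WT cells of both types, to a mean of 20.2 CPM at day 6 from 11.5 CPM at day 0 in preadipocytes (adjusted p = 0.00191, edgeR; 0.0699 without WT replicate 2) and to 16.6 CPM at day 8 from 10.8 CPM in MEFs (adjusted p = 9.04e-05). Zdhhc18 fell in WT preadipocytes from a mean of 32.6 CPM at day 0 to 17.8 CPM at day 9 (adjusted p = 0.000151, edgeR). In MEFs its change from 31.2 CPM at day 0 to 23.5 CPM at day 12 stayed under 1.5-fold (adjusted p = 0.0142).

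Ets2 was called in WT preadipocytes, with means of 38.2, 47.9, 37.5 and 24.8 CPM (adjusted p = 0.0225, edgeR), and its 3 libraries at day 3 spread from 34.0 to 70.3 CPM. The call was lost with no filter (adjusted p = 0.0858) and without WT replicate 2 (0.103). With the replicate block (0.0107) and without WT replicate 3 (0.0186) no day of Ets2 reached 1.5-fold from day 0. In MEFs no day differed 1.5-fold from day 0 (adjusted p = 0.0168, edgeR). Brwd1, Wrb, Dhdds and Arid1a were not called in WT cells of either type, since no day differed 1.5-fold from day 0. Their highest day exceeded their lowest by 1.33, 1.28, 1.34 and 1.29-fold in preadipocytes and by 1.16, 1.28, 1.16 and 1.29-fold in MEFs. Brwd1 in MEFs also missed the threshold on the adjusted p (0.0557, edgeR).

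The levels of Cbr3 in DKO cells stood apart from WT levels once differentiation had begun. In preadipocytes at day 0 the DKO libraries had 10.1, 8.41 and 7.72 CPM and the WT libraries 10.01, 10.9 and 8.21 CPM, and the groups overlapped (log2 DKO/WT -0.16 ± 0.16, SE). By day 3 the DKO libraries held 15.9, 23.8 and 19.4 CPM against 11.7, 7.93 and 7.06 CPM in WT (1.14 ± 0.24). At day 6 they held 44.2, 60.4 and 44.7 CPM against 10.4, 11.8 and 11.02 CPM (2.16 ± 0.13), and at day 9 42.4, 54.9 and 49.9 CPM against 13.4, 14.9 and 15.6 CPM (1.71 ± 0.11). From day 3 on every DKO library was above every WT library.

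In MEFs Cbr3 followed the same sequence. The groups overlapped at day 0, where the DKO libraries held 7.57, 15.9 and 8.57 CPM, and the log2 difference of 0.18 ± 0.29 (SE) turned to -0.22 without DKO replicate 2. At day 4 the DKO libraries held 60.2, 40.1 and 56.5 CPM and did not overlap the WT libraries (0.87 ± 0.16). At day 8 they held 32.1, 32.6 and 42.9 CPM, above all WT libraries (1.3 ± 0.48, and 2.07 without WT replicate 2). At day 12 the libraries were again apart, with 35.2, 35.8 and 33.5 CPM in DKO and 18.1, 17.4 and 13.4 CPM in WT cells (1.10 ± 0.09).

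Cbr1 differed in the same direction and by less. Its log2 differences were 0.09 ± 0.12 (SE), 0.48 ± 0.13, 1.3 ± 0.09 and 0.96 ± 0.13 in preadipocytes at days 0, 3, 6 and 9, and the DKO libraries at day 6 held 117.1, 134.5 and 120.1 CPM against 47.1, 56.7 and 46.6 CPM in WT. In MEFs they were 0.09 ± 0.17, 0.29 ± 0.18, 0.72 ± 0.16 and 0.92 ± 0.07 at days 0, 4, 8 and 12. The difference at day 0 turned to -0.10 without DKO replicate 2. At day 12 the DKO libraries did not overlap the WT libraries (39.5, 41.8 and 43.6 CPM). The DKO and WT libraries overlapped at day 0 of both cell types and at day 4 of MEFs, and were apart in the other 5 comparisons. The ratio of Cbr1 to Cbr3 at day 6 of preadipocytes was 2.23 to 2.69 in DKO libraries and 4.22 to 4.81 in WT libraries. Sequence shared with other genes was short, as 1 of the 1254 stretches of 50 bases in the Cbr3 transcripts (0.0797%) and 1.85% of those of Cbr1 occur in another gene.

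Markers of several cell types also differed between DKO and WT cells at day 6 of preadipocytes and day 12 of MEFs, and some at other days, day 0 included. Each adipocyte marker that was tested (7 of 7, except 5 in preadipocytes and 4 in MEFs at day 0) had a log2 DKO/WT above 0 in every comparison. Their sum was 26620 to 32960 CPM in DKO and 20350 to 24780 CPM in WT preadipocytes at day 6, where 1 of 7 was called higher. In MEFs at day 12 it was 24300 to 25660 CPM in DKO and 16420 to 16610 CPM in WT, and 5 were called higher. In MEFs at day 4 the sums overlapped, at 2768 to 7368 CPM in DKO and 1900 to 5886 CPM in WT. They also overlapped at day 8, at 4376 to 15840 CPM in DKO and 3788 to 9290 CPM in WT. In preadipocytes they were apart at day 3, at 3502 to 4844 against 674.5 to 2642 CPM. The sums at day 9, 32320 to 39310 against 25260 to 26360 CPM, were apart too. Macrophage or leukocyte markers were lower in DKO preadipocytes at day 6, with overlap, at 226.9 to 635.2 against 620.4 to 1006 CPM. At day 9 of preadipocytes they were lower without overlap, at 282.9 to 542.7 against 573.1 to 1033 CPM. At day 4 of MEFs they were apart, at 403.2 to 461.7 against 504.2 to 517.3 CPM, and at day 8 they overlapped. In MEFs at day 12 they were also lower, at 692.4 to 755.2 against 925.6 to 954.8 CPM. None of these markers was called in any comparison. Brown adipocyte markers (5 genes) summed to 252.7 to 340.9 CPM in DKO and 90.55 to 114.8 CPM in WT preadipocytes at day 6, where 4 of the 5 were called higher, and to 45.6 to 48.4 against 35.5 to 39.5 CPM in MEFs at day 12, where 3 were called higher and 1 lower. Adipose progenitor or fibroblast markers (7 genes) summed to 857.5 to 1232 CPM in DKO and 2286 to 2754 CPM in WT preadipocytes at day 6, where 3 were called lower and 1 higher, and to 4763 to 4997 against 6820 to 7190 CPM in MEFs at day 12, where 2 were called lower. Endothelial, epithelial and skeletal muscle markers (4 genes each) summed to at most 40.7 CPM in any library. In MEFs at day 12, 2 endothelial markers were called lower and 2 epithelial markers were called higher. The part of these marker lists in the levels of Cbr1 and Cbr3 was not tested.

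**Figure D2:**
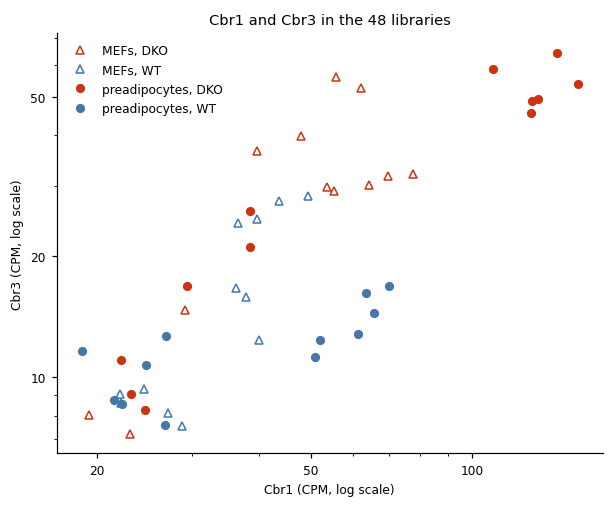
Cbr1 against Cbr3 in CPM (log axes, scaled over all 48 libraries), with 1 symbol per library. DKO preadipocytes at days 6 and 9 form the upper right group. WT preadipocytes of those days lie to the right of the other WT libraries, and WT MEFs of day 4 lie above them.

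Dhdds, the member nearest to Hmgn2, was lower in DKO than in WT cells in all 8 comparisons, by less than 1.5-fold except in MEFs at day 0. There the DKO libraries held 28.9, 30.7 and 29.1 CPM against 45.9, 44.9 and 46.7 CPM in WT, a log2 difference of -0.63 ± 0.08 (SE). At days 4, 8 and 12 of MEFs it was -0.42 ± 0.08, -0.49 ± 0.08 and -0.33 ± 0.05, and no DKO library reached a WT library at any day. At day 12 the values were 34.2, 35.0 and 35.4 CPM in DKO and 42.7, 44.8 and 44.7 CPM in WT cells. In preadipocytes the difference was smaller, at -0.17 ± 0.06, -0.22 ± 0.07, -0.15 ± 0.08 and -0.11 ± 0.10 at days 0, 3, 6 and 9. The libraries did not overlap at days 0 (30.3, 31.2 and 32.0 CPM against 35.0, 35.3 and 34.5 CPM) and 3, and overlapped at days 6 and 9. Unlike Cbr1 and Cbr3, Dhdds thus stood apart at day 0, before differentiation was induced, in both cell types. Some marker sums were also apart at day 0. Adipocyte markers summed to 1520 to 2147 CPM in DKO and 929.7 to 1120 CPM in WT MEFs, and overlapped in preadipocytes. Adipose progenitor or fibroblast markers summed to 14100 to 16500 against 11800 to 12310 CPM in preadipocytes, and overlapped in MEFs. Their part in the level of Dhdds was not tested.

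Rps6ka1 was lower in DKO MEFs at day 0, with 32.7, 21.8 and 29.4 CPM against 40.7 to 45.2 CPM in WT and no overlap (log2 -0.62 ± 0.15, SE; -0.47 without DKO replicate 2). Macrophage or leukocyte markers summed to 635.7 to 1185 CPM in these DKO libraries and 1353 to 1552 CPM in WT, and their part in this was not tested. In preadipocytes at day 3 its DKO libraries lay above the WT libraries by 0.26 ± 0.15, at levels of at most 6.60 CPM. The groups overlapped in the other 6 comparisons, including day 9 of preadipocytes (-0.36 ± 0.19) and day 8 of MEFs (-0.05 ± 0.30, and 0.24 without WT replicate 2).

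Psmg1 had positive differences in all 8 comparisons, from 0.03 ± 0.16 (SE) at day 3 to 0.32 ± 0.11 at day 9 of preadipocytes, and its libraries were apart in 3 of them (day 9 of preadipocytes, days 4 and 12 of MEFs). The sign of the 3 smallest turned when a single library was left out: to -0.05 at day 0 of MEFs without DKO replicate 2, to -0.04 and -0.05 at day 0 of preadipocytes without WT replicate 2 or DKO replicate 3, and to -0.11 and -0.08 at day 3 of preadipocytes without WT replicate 1 or DKO replicate 2. Limma-voom with quantile normalization also turned the difference at day 3 of preadipocytes. Ets2 overlapped in 7 comparisons. Its largest difference, 0.67 ± 0.37 in MEFs at day 0, fell to 0.13 without DKO replicate 2, and its DKO libraries lay below WT only in MEFs at day 12 (54.7, 54.4 and 56.2 against 62.8, 64.1 and 59.6 CPM; -0.17 ± 0.05).

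Brwd1 and Wrb, which flank Hmgn1, differed least. Wrb overlapped in all 8 comparisons, with log2 differences between -0.18 and 0.06. Brwd1 lay between -0.16 and 0.16, and its DKO libraries (145.0, 138.2 and 155.1 CPM) exceeded the WT libraries (127.8, 137.0 and 129.3 CPM) only in MEFs at day 0. An annotated antisense gene overlaps Wrb, and whether the counting used the strand of the reads is not given in the sources used here.

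Arid1a and Zdhhc18 were lower in DKO preadipocytes at the late days. Arid1a held 51.2, 48.3 and 52.4 CPM in DKO and 62.8, 58.0 and 65.2 CPM in WT cells at day 6 (log2 -0.30 ± 0.09, SE), and at day 0 its DKO libraries (84.2, 81.2 and 83.1 CPM) were above the WT libraries (69.3, 78.8 and 77.8 CPM). Zdhhc18 held 17.2, 20.01 and 19.4 CPM in DKO and 22.8, 22.0 and 25.3 CPM in WT cells at day 6 (-0.32 ± 0.10). For both genes the libraries were also apart at day 9 of preadipocytes, at -0.21 ± 0.07 and -0.23 ± 0.08. In MEFs their DKO and WT libraries overlapped at all 4 days.

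**Figure D3:**
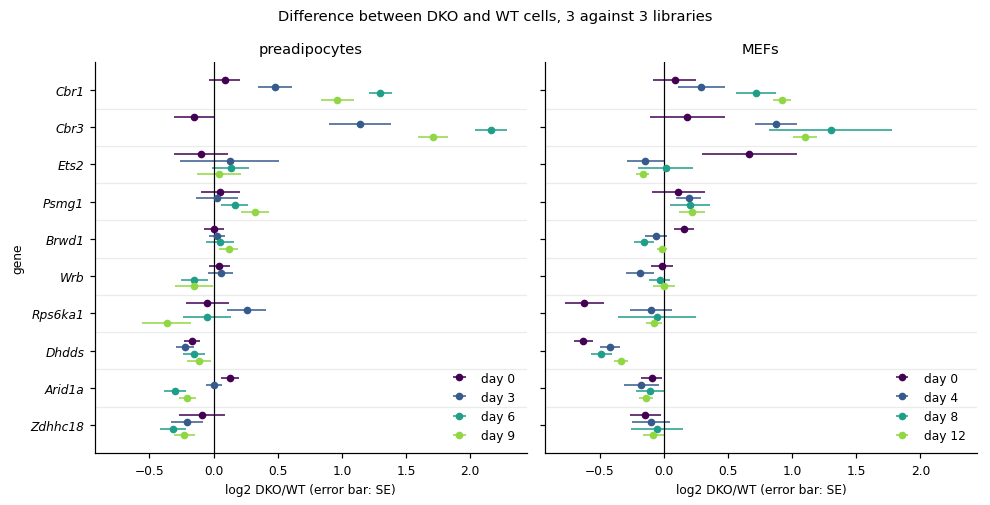
Log2 DKO/WT of the 10 genes (rows) with its SE, by day (colour), in preadipocytes (left) and MEFs (right), from 3 against 3 libraries. The points of Cbr1 and Cbr3 move to the right after day 0, and those of Dhdds are below 0 at every day.

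Of the 80 combinations of a member with a comparison, 6 met the call of an adjusted p under 0.05 and a 1.5-fold difference, which are those of Cbr1 and Cbr3 in preadipocytes at days 6 and 9 and in MEFs at day 12. Each of these comparisons called 2 of the 10 members, where 11.6%, 1.24% and 7.98% of all tested genes were called. No member was called in preadipocytes at days 0 and 3 or in MEFs at days 0, 4 and 8, where 0.218%, 0.337%, 0.102%, 0.0905% and 0.0595% of all genes were. The median log2 difference of the members lay between -0.10 and 0.04 over the 8 comparisons, and that of all genes between -0.01 and 0.01. Cbr1 at day 9 of preadipocytes was no longer called when DKO replicate 1 or any single WT replicate was left out. With 1 fit over all days Cbr3 was not called in MEFs at day 12, and Dhdds in MEFs at day 0 and Cbr3 in preadipocytes at day 3 were. As the members were chosen with these comparisons known, their counts are a description.

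Libraries of DKO and WT cells that do not overlap were common among all genes. In preadipocytes 2, 4, 4 and 5 of the 10 members did not overlap at days 0, 3, 6 and 9, and 15.0%, 18.5%, 42.1% and 34.8% of all tested genes. In MEFs it was 3, 3, 3 and 5 members at days 0, 4, 8 and 12, and 18.5%, 11.6%, 15.6% and 46.8% of all genes. Separation in the same direction in at least 6 of the 8 comparisons was rarer and was found in 1.53% of the 13059 genes tested in all of them. Cbr3 (higher in 6) and Dhdds (lower in 6) were among these 200 genes, as were Hmgn1 and Hmgn2 and, within 1 Mb of a locus, Pafah2 (higher in 6), named after its values were seen. Calls in the same direction in at least 6 comparisons were met by 0.0842% of genes (11), of which 10 lay more than 3 Mb from either locus or on other chromosomes and the other was Hmgn2.

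All genes around the loci were then counted by position alone. Within 1 Mb of Hmgn1 or Hmgn2, 52 genes were tested at least once, the 8 nearer members included. Of these 10 were called in at least 1 comparison, and none of the 10 was a member. In preadipocytes at day 6, 7 of 42 genes in this window were called (16.7%), beside 8.22% of 73 genes from 1 to 3 Mb and 11.6% of genes on other chromosomes. At day 9 it was 3 of 44 (6.82%), beside 2.63% and 1.26%. In MEFs at day 12 it was 4 of 47 (8.51%), beside 5.06% and 8.14%. From 3 to 10 Mb the shares at these 3 points were 15.6%, 1.65% and 5.32%. Beyond 10 Mb on the same chromosomes they were 10.4%, 0.486% and 6.5%. In the other 5 comparisons none of the 42 to 47 genes within 1 Mb and none of the 73 to 81 genes from 1 to 3 Mb was called. Calls within the window were higher in DKO in 2, 1 and 4 cases and lower in 5, 2 and 0 cases at these 3 points. With so few genes, 1 call moves a share by over 2 percentage points, and these shares were not tested. The 10 calls within 1 Mb in preadipocytes became 6 without WT replicate 2 and 4 without WT replicate 3.

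Around Hmgn1 the window of 1 Mb held 6 to 9 tested genes. Kcnj15, a potassium channel gene 0.82 Mb from Hmgn1, was called higher in preadipocytes at days 6 (log2 3.62 ± 0.27, SE) and 9 (2.68 ± 0.24) and in MEFs at day 12 (1.46 ± 0.13), the same comparisons as Cbr1 and Cbr3, and its difference at day 0 was -0.28 ± 0.39 in preadipocytes and 0.18 ± 0.56 in MEFs. Around Hmgn2, Extl1 (0.388 Mb) was called higher in preadipocytes at day 6 (2.93 ± 0.44) and in MEFs at day 12 (1.49 ± 0.37). The other 7 calls within 1 Mb of Hmgn2 in preadipocytes were lower in DKO, among them Cd52 (0.114 Mb), a leukocyte surface protein gene, at days 6 (-0.91 ± 0.24) and 9 (-1.35 ± 0.14). These 3 genes were named after their values were seen. No gene within 1 Mb, other than Hmgn2 itself, was called in the same direction in 4 or more comparisons. Between 1 and 3 Mb of Hmgn1 7 calls were made over the 8 comparisons, all higher in DKO, and 6 of them were Cbr1 and Cbr3.

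**Figure D4:**
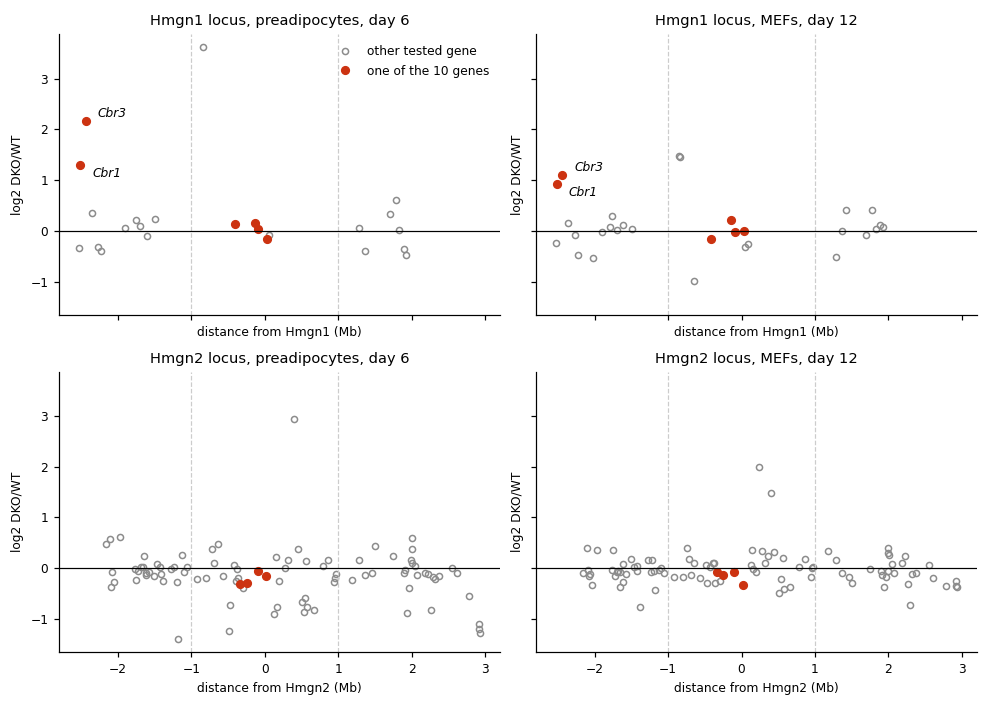
Log2 DKO/WT of tested genes against the distance between gene midpoints, in Mb, from Hmgn1 (top) or Hmgn2 (bottom), in preadipocytes at day 6 (left) and MEFs at day 12 (right), with the 10 genes in red and dashed lines at 1 Mb. Cbr1 and Cbr3 lie beyond 2 Mb, and the members near 0 Mb have small differences.

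**Figure D5:**
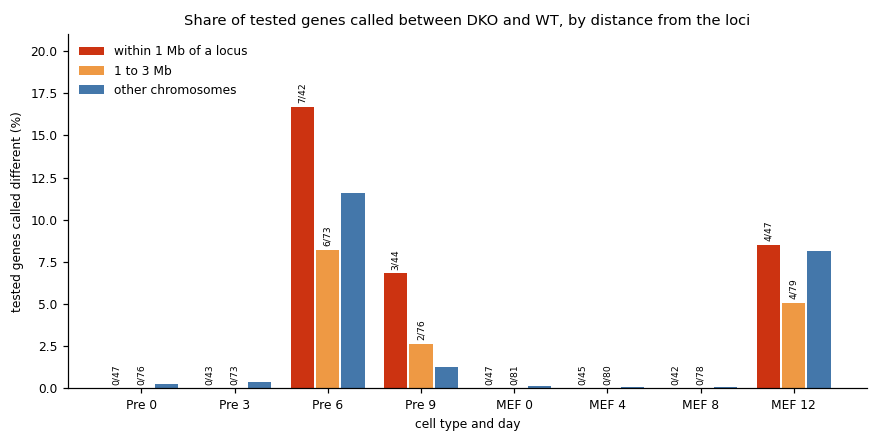
Share of tested genes called between DKO and WT cells (y axis, percent) by cell type and day, within 1 Mb of a locus, from 1 to 3 Mb, and on other chromosomes; labels give called and tested genes. No gene near the loci is called in the 5 comparisons with few calls elsewhere.

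Whether the difference between DKO and WT cells itself changed with the day was examined with the interaction of genotype and day over the 24 libraries of a cell type. In preadipocytes 2 of the 10 members, Cbr1 and Cbr3, were called, beside 2.08% of 16877 genes, and in MEFs none was, beside 0.0177% of 16996 genes. Without WT replicate 1 or without WT replicate 3, Cbr3 alone was called. The log2 DKO/WT of Cbr3 in preadipocytes exceeded that of day 0 by up to 2.35 on the log2 scale, and that of Cbr1 by up to 1.25. These calls use the contrast known when the genes were chosen, so they are a description and no test.

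Genes with levels most like those of Cbr3 were sought over the 48 libraries, after adding 0.5 CPM, taking log2 and removing the mean of each cell type and day. Among 17509 other genes the 5 highest Pearson correlations were those of Cbr1 (0.91), Aldh5a1 (0.87), Dhrs4 (0.87), Aldh2 (0.85) and Afg1l (0.85). Aldh5a1 (chromosome 13, 24907579 to 24937661) and Aldh2 (chromosome 5, 121566027 to 121593824) encode mitochondrial aldehyde dehydrogenases, Dhrs4 (chromosome 14, 55478758 to 55490340) a carbonyl reductase of peroxisomes and Afg1l (chromosome 10, 42312585 to 42478565) a mitochondrial ATPase. None of these 4 is on chromosome 16. The libraries share their genotype groups, so these values largely describe the difference between DKO and WT cells. With the mean of each group of 3 libraries removed the correlations were 0.54 for Cbr1, 0.71 for Aldh5a1, 0.38 for Dhrs4, 0.69 for Aldh2 and 0.39 for Afg1l. The other members had correlations with Cbr3 between -0.53 (Arid1a) and 0.40 (Psmg1).

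Functional partners of the members were counted for comparison, from 9 lists of 65 genes in all, of which 63 were found and lie more than 10 Mb from the loci. In preadipocytes at day 6, 2 of 62 tested partners were called (3.23%, beside 11.6% of all genes), at day 9 1 of 62 and in MEFs at day 12 2 of 62, and none in the other 5 comparisons. Dhrs4 was the partner called in more than 1 comparison, with log2 differences of 0.86 ± 0.11 (SE), 0.67 ± 0.07 and 0.67 ± 0.05 at these 3 points, and its 3 DKO libraries at day 6 held 82.1, 102.4 and 94.9 CPM against 46.1, 58.0 and 49.6 CPM in WT. Apart from Dhrs4, none of the other tested carbonyl reductases (Cbr2, Cbr4, Akr1a1, Akr1b3, Akr1b8, Akr7a5 and Dcxr were listed) was called in any comparison. Dolk, which makes dolichyl phosphate, was called higher in MEFs at day 12 (0.60 ± 0.06), and the ETS factor gene Elk3 lower in preadipocytes at day 6 (-0.83 ± 0.12). Of the RSK kinase, proteasome assembly, BAF complex, GET pathway, ZDHHC and BRWD lists, no gene was called.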

How the data were processed

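The authors sequenced stranded libraries as paired-end reads of 50 bases, trimmed them (cutadapt 1.18), aligned them to mm10 (STAR 2.7.0f) and deposited RSEM 1.3.0 expected counts, 1 table per cell type, without normalization. RSEM divides reads that fit several genes. All 55450 identifiers matched GENCODE M21, and no column was left without a sample. Expected counts were rounded. DKO and WT libraries were compared per day with edgeR 4.0.16 (R 4.3.3): filterByExpr, TMM, robust quasi-likelihood fit, Benjamini-Hochberg adjustment, 3 against 3 libraries. Time in WT cells and the genotype by day interaction used all libraries concerned. A gene was called at an adjusted p under 0.05 and 1.5-fold (interaction: adjusted p alone). The fits were tested on simulated counts. Summed counts had medians of 23978863 (preadipocytes) and 23901661 (MEFs).

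The members and all lists were chosen with earlier results of these data known. Named are the 10 members, Hmgn1 and Hmgn2, genes within 1 Mb called in the same direction in at least 4 of 8 comparisons, the 5 genes most like Cbr3, and partners called in at least 2 comparisons; other names were chosen after their values were seen. The alternatives were scaling by library size, DESeq2 1.42.0, limma-voom 3.58.1 with quantile normalization, no filter, 0.5 CPM in 2 libraries, no fold threshold, 1 fit over all days, the replicate number as a block, windows of 0.5 and 5 Mb, and leaving out each replicate. A block for each numbered culture in the interaction was added after seeing the data. Promoter sequences are from RefSeq (GRCm38.p6), matched by Ensembl identifier or, where none was found, by symbol or synonym. Protein sequences were not used. Replicates of a group differed by more than sampling noise (chi-square per degree of freedom of 2.16 to 169), and each was kept as a sample of its own.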

Additional observations from a re-analysis of the deposited data

Results flagged for a closer look

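In preadipocytes the log2 DKO/WT of Cbr3 and of Cbr1 stood above that of day 0 by up to 2.35 and 1.25, and these were the members called in edgeR's interaction of genotype and day. The genes were chosen with this contrast known, so these calls are a description and no test.

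Arid1a was flagged because its 3 DKO libraries all exceeded WT in preadipocytes at day 0 and were all lower than WT at day 6. The log2 differences of these days were 0.13 and -0.30, 0.43 apart. That pair of days was not tested on its own, and in the interaction over the 4 days Arid1a was not called with edgeR but was called with DESeq2, limma-voom, scaling by library size, and the block for each numbered culture, which is likewise a description.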

How the results depend on the processing

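Over the 8 comparisons the count of member calls between DKO and WT cells was 4 in preadipocytes and 2 in MEFs, and it moved by over 1.5 times in MEFs with DESeq2 (5) and without the fold threshold (4), the added calls being Dhdds at day 0, Cbr3 at day 4 and Cbr1 at day 8 for DESeq2. In 1 fit over all days the count stayed at 2 in MEFs, with Dhdds at day 0 in place of Cbr3 at day 12. Leaving out each replicate in turn gave 3 to 4 in preadipocytes, where Cbr1 at day 9 was lost without DKO replicate 1 or any 1 of the WT replicates, and 2 to 3 in MEFs. Calls within 1 Mb of a locus in preadipocytes (10) became 6 with the replicate block, 6 with bounds of 0.5 and 5 Mb, and 4 to 13 without a replicate, with 6 and 4 without WT replicates 2 and 3. From 1 to 3 Mb the 8 calls became 13 with DESeq2, 14 without the fold threshold, 22 between 0.5 and 5 Mb, and 5 to 12 without a replicate, with 5 without WT or DKO replicate 3. In MEFs the 4 calls within 1 Mb became 2 in 1 fit over all days, 16 without the fold threshold and 2 within 0.5 Mb (3 to 5 without a replicate), and the 4 calls from 1 to 3 Mb became 1, 24 and 9, and 7 with DESeq2 (4 to 8 without a replicate, 8 without DKO replicate 1). Member calls over days in WT cells rose without the fold threshold to 10 in preadipocytes and 9 in MEFs and were 3 to 6 and 3 to 4 without a replicate, 3 in preadipocytes without WT replicate 2. Interaction calls in preadipocytes were 1 to 2 without a replicate, 1 without WT replicate 1 or 3, and none was made in MEFs under any alternative run. The cause of these changes was not tested, other than that removing the fold threshold or widening a window can only add genes to a count.

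Replicate numbers did not pair the samples throughout: same-numbered WT and DKO libraries of a day had correlations of their deviations from -0.292 to 0.628 in preadipocytes and from -0.79 to 0.755 in MEFs, and 13 and 7 of 24 libraries correlated best with their own number. Between days, all 3 same-numbered pairs were over 0.1 for DKO preadipocytes of days 0 and 3 (0.46 to 0.612) and of days 6 and 9 (0.473 to 0.566) and for WT preadipocytes of days 6 and 9 (0.218 to 0.538), so the WT libraries of these days may not be independent in the test over days, where the block removed the call of Ets2 (6 to 5 calls). Over the other pairs of days of WT preadipocytes the correlations ran from -0.218 to 0.542. With the replicate block the member calls stayed at 4 and 2, the time calls were 5 and 4, the interaction calls 2 and 0, and calls from 1 to 3 Mb were 9 and 4. A block for each numbered culture gave 3 and 0 interaction calls.

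Of the single log2 differences under the alternatives, 1028 moved by less than the spread between replicates and 12 by more. Scaling by library size alone shifted the median of all genes by up to -0.0987 (preadipocytes, day 6). Among single tests over days in WT cells, 166 kept their side of the threshold, 12 lost the call and 2 gained it. The 3 libraries per group limit what differences under 1.5-fold, such as those of Dhdds, can show.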
